A study of Homo sapiens with 6 samples.

Results

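The 41 genes described here encode proteins of the Fanconi anemia pathway, of homologous recombination and of the DNA damage checkpoint, and they were taken as a named list, not by their levels, from the 23406 features measured in Hep-3B cells. All 41 were found by their Ensembl identifiers and all 41 were among the 14071 features with enough counts to be tested. The Fanconi core complex is a ubiquitin ligase that acts where a replication fork meets a crosslink between the DNA strands, and it marks the FANCD2-FANCI pair, which brings in nucleases that unhook the crosslink. Translesion polymerases then copy past the lesion, and the broken sister is repaired by homologous recombination, in which BRCA2 and its partners act on the resected ends. ATM, ATR and CHEK1 hold the cell cycle meanwhile, and inherited loss of many of these genes causes Fanconi anemia or a predisposition to breast and ovarian cancer.

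Expression was profiled by RNA sequencing in Hep-3B, an established human hepatocellular carcinoma line, to learn which genes respond to loss of NXN (nucleoredoxin, a thioredoxin-family oxidoreductase). The shControl cells are labelled WT and received a control shRNA plasmid, and the shNXN cells are labelled as an NXN knockdown and received an shRNA whose sequence the labels do not give. Both groups were transduced with lentivirus and selected with puromycin, and RNA was taken on days 7, 9 and 11. There was 1 library per group and day, so each group holds 3 libraries that differ in day, and nothing in the labels says that the days were separate cultures. The p values below therefore measure the spread between these libraries, which may be technical.

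The estimated counts summed to between 15349382 and 16332589 per library. NXN itself was at 154 ± 23.4 CPM (estimated counts scaled to library size) in shControl and 43.2 ± 4.03 CPM in shNXN cells (SD, n = 3), and its log2 fold change was -1.83 (adjusted p = 0.0378, edgeR's quasi-likelihood test). The line was checked against its markers. ALB, AFP and APOA2, secreted by liver cells, had at least 4918 counts in every library, the endothelial and T cell genes VWF, KDR and CD3E had 0 counts, and PTPRC had at most 3. The summed level of 13 hepatoma markers was 22699, 27360.1 and 20259 CPM in shControl and 14241, 12761 and 21204 CPM in shNXN cells on days 7, 9 and 11. The shNXN library of day 11 thus lay within the shControl range and the other shNXN libraries below it. ALB, part of this sum, ran from 11143 to 221937 counts, the widest range of the 13. By edgeR 6 of the 13 had a log2 fold change below 0 and 7 above (median 0.09). Of these 13 markers edgeR called 0, with 3 at an unadjusted p under 0.05 (2 lower, 1 higher). DESeq2 called 1, which was higher in shNXN cells. The summed level of 9 blood, stromal and endothelial markers, most of it from CD68 (876 to 1585 counts), was 62.2, 66.7 and 82.6 CPM in shControl and 99.98, 106 and 92.4 CPM in shNXN cells, so that the groups did not overlap. Of the 3 of these 9 with enough counts to be tested, edgeR called 0 (1 at an unadjusted p under 0.05) and DESeq2 called CD68, which was higher in shNXN cells. These sums are per library total without TMM scaling. The part of both sets of markers in the results below was not tested.

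Most of the 41 repair genes were lower in shNXN cells, and a smaller group with GC-rich transcripts was higher. The median log2 fold change of the 41 was -0.68 against 0.03 over all tested features, and 30 of the 41 were below 0, against 48.6% of all features. By edgeR's quasi-likelihood test 3 genes passed an adjusted p of 0.05, and all 3 fell: RMI1, FANCL and REV3L. Over all features 3.39% passed (3.21% lower). When the day was added to the model as a block, 18 of the 41 passed, 17 of them lower and 1 higher, against 23.3% of all features (17.0% lower and 6.28% higher). The pairing by day comes from the labels. In bulk RNA, fewer cells that express a gene and less of its RNA per cell cannot be told apart.

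For 19 of the 41 genes the highest shNXN library lay below the lowest shControl library, against 21.5% of all features. The reverse held for 7 genes, against 19.0% of all features, and the groups overlapped for 15. Together the 41 genes took 0.162%, 0.157% and 0.179% of the counts in shControl cells on days 7, 9 and 11, and 0.107%, 0.0964% and 0.142% in shNXN cells. The groups did not overlap on this measure, and the shNXN library of day 11 was the closest to the shControl libraries. Leaving out that library raised the number of called genes from 3 to 25. Leaving out shControl replicate 1 or 3 or shNXN replicate 1 or 2 reduced it to 0, with 18, 21, 17 and 17 genes at an unadjusted p under 0.05 (edgeR, in that order), and RMI1 alone was called without shControl replicate 2. Over all features the share called was 25.8% without that library, 0% in the 4 fits that called 0 repair genes and 1.73% without shControl replicate 2. With both libraries of day 11 left out, 26 repair genes and 31.8% of all features were called.

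The number of calls also moved with the tool and the scaling. DESeq2, with all 6 libraries, called 20 of the 41 (15 lower, 5 higher) against 23.5% of all features (16.8% lower, 6.75% higher). Within edgeR, RLE factors called 6 (5.87% of all features), scaling to library size only called 8 (6.6%), no filter beyond 1 count called 8 (4.22%), and a minimum of 10 counts in every library called 4 of the 40 genes that met it (4.44%). RMI1, FANCL and REV3L were called in each of these edgeR settings, and POLK, BRCA2, FANCM, FANCB and RAD50 were the further genes called. A setting that called more repair genes mostly called more features in general. At an unadjusted p under 0.05, edgeR gave 26 of the 41 (20 lower, 6 higher) against 32.9% of all features (21.3% lower, 11.6% higher).

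**Figure D1:**
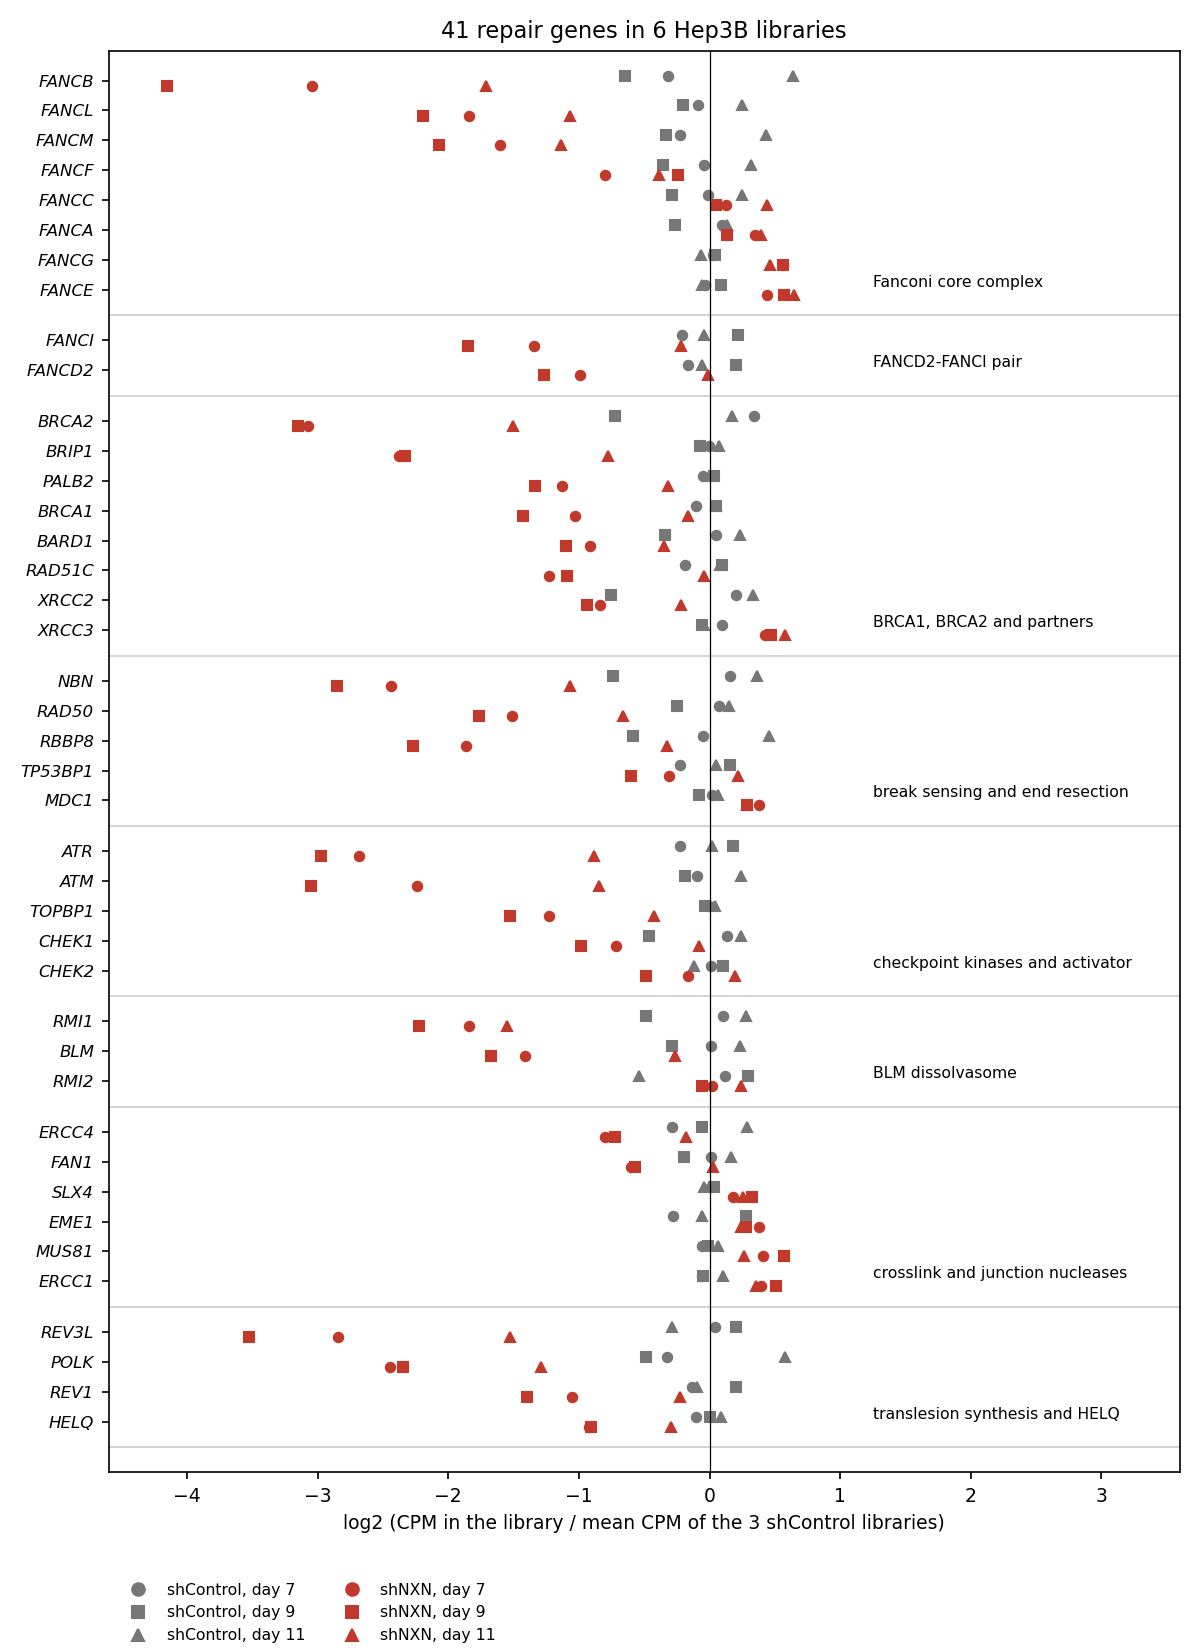
Level of each of the 41 repair genes in each library, as log2 of its CPM over the mean CPM of the 3 shControl libraries, with genes grouped by role. Grey symbols are shControl and red symbols shNXN libraries, and circles, squares and triangles are days 7, 9 and 11. For 19 genes all red symbols lie left of all grey ones, and for many of these the red triangle of day 11 lies nearest to the grey symbols.

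The direction of a repair gene followed the GC content of its transcript. The median GC content of the 41 was 42.2% (range 34.7% to 63.8%), against 48.4% over the tested genes, and 29 of the 41 were below the latter value. All 13 genes under 40% GC and all 13 from 40% to 45% had a log2 fold change below 0, and all 7 genes at or over 55% were above 0. Across the 41 genes Spearman's rho between GC content and log2 fold change was 0.90 (Pearson's r 0.88), and over the 12740 tested genes with a GC value it was 0.79. Genes are not independent replicates and share the 6 libraries, so these correlations are descriptions. The GC trend differed between the groups in the libraries as a whole. The slope of a library's log2 deviations on GC content was -0.28, -0.18 and -0.47 per 10 percentage points in shControl cells on days 7, 9 and 11, and 0.39, 0.50 and 0.03 in shNXN cells.

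Coding sequences illustrate this range, with GC-rich genes that were picked for their GC content. Below are 90 bases from 6 genes, in 5′ to 3′ direction with G and C in capitals, namely the 3 genes called without the block and the 3 of highest transcript GC content. Each stretch was read from the GENCODE 29 transcript (GRCh38) in the reading frame, as the window whose GC content is nearest to that of the whole coding sequence.
RMI1, coding bases 61 to 150: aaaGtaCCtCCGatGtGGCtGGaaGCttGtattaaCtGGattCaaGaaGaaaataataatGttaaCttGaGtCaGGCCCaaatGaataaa
FANCL, coding bases 76 to 165: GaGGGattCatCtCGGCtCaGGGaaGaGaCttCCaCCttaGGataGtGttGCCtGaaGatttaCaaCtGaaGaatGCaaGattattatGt
REV3L, coding bases 256 to 345: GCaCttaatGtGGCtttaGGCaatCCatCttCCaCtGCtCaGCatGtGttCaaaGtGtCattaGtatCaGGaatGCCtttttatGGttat
FANCE, coding bases 238 to 327: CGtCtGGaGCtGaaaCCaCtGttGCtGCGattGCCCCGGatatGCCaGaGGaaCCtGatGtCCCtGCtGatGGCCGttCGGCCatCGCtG
FANCG, coding bases 145 to 234: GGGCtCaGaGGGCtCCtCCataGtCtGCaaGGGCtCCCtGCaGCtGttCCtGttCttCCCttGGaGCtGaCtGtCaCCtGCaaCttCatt
XRCC3, coding bases 154 to 243: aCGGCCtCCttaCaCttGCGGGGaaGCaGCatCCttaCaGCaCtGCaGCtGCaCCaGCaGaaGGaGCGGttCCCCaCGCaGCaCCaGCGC
G and C make up 32, 38 and 36 of the 90 bases in the 3 genes that fell, and 54, 51 and 57 in the 3 GC-rich genes. The contrast was larger at the last base of the codon, where GC content over the whole coding sequence was 27.2% in RMI1 and 76.9% in XRCC3. Spearman's rho of the log2 fold change was 0.93 with coding GC content and 0.90 with that of the last codon base (41 genes). FANCF and RMI2 set the measures apart. Their coding GC contents were 59.4% and 68.5%, above their transcript values of 45.4% and 48.7%, and their log2 fold changes were -0.46 and 0.07.

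In GENCODE 29 (GRCh38), RMI1 lies on the plus strand of chromosome 9 from 83980711 to 84004074, and FANCL on chromosome 2, minus strand, from 58159243 to 58241372. On chromosome 6, REV3L spans 111299028 to 111483715 (minus strand) and FANCE 35452356 to 35467103 (plus strand). FANCG occupies bases 35073835 to 35080016 of chromosome 9 and XRCC3 103697609 to 103715504 of chromosome 14, both on the minus strand. All 6 are protein-coding. Exons of FANCL and XRCC3 overlap those of the protein-coding genes VRK2 and KLC1 on the opposite strand. Whether the counting used strand is not given in the sources used here, so reads in such overlaps cannot be told apart.

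**Figure D2:**
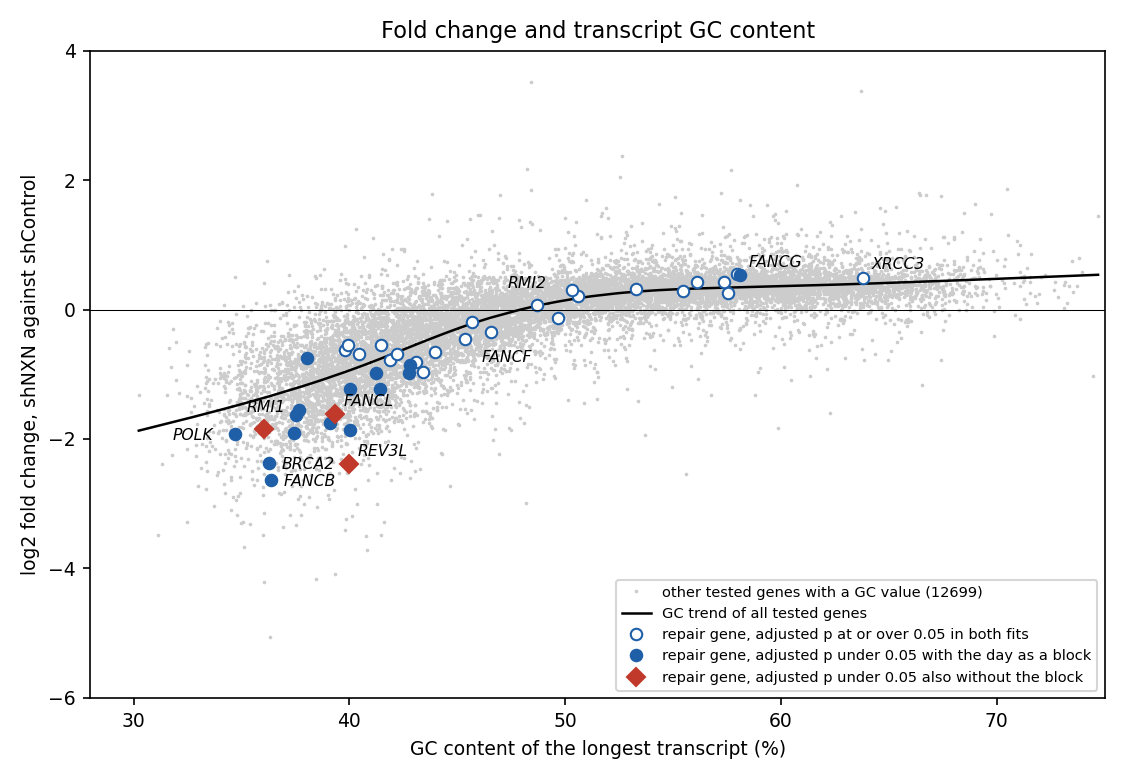
Log2 fold change of shNXN against shControl cells from counts (vertical axis) and GC content of the longest transcript in percent (horizontal axis), with grey points for the other tested genes and the black line for their GC trend. Open circles, filled circles and diamonds are the 41 repair genes by call. The filled points below 0 lie between 34.7% and 42.8% GC, and the genes at or over 55% lie above 0.

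The Fanconi core complex held genes at both ends. Of its 8 members, FANCL fell without the block, FANCB and FANCM as well with it, and FANCG rose with it. FANCL, the ubiquitin ligase subunit of the complex, was at 35.5, 32.7 and 44.8 CPM in shControl and 10.5, 8.21 and 17.98 CPM in shNXN cells on days 7, 9 and 11. The groups did not overlap. Its mean went from 37.6 ± 6.34 to 12.2 ± 5.10 CPM (SD, n = 3), and its log2 fold change was -1.62 (SE 0.32, adjusted p = 0.0482, edgeR's quasi-likelihood test, Benjamini-Hochberg, and 0.0142 with the block). FANCB, an X-linked core subunit that partners FANCL, had the lowest mean FPKM of the 41 and was at 5.25, 4.18 and 10.2 CPM in shControl and 0.791, 0.368 and 1.998 CPM in shNXN cells. Its lowest library, shNXN on day 9, held 6 counts. Its log2 fold change of -2.63 was the furthest below 0 of the 41 but had the largest SE, 0.63 (edgeR adjusted p = 0.0607, and 0.0143 with the block).

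FANCM, the DNA translocase that anchors the core complex to chromatin, was at 12.98, 12.1 and 20.5 CPM in shControl and 4.99, 3.62 and 6.90 CPM in shNXN cells, without overlap. That is a log2 fold change of -1.55 (SE 0.33, edgeR adjusted p = 0.0532, and 0.0147 with the block). FANCG, a scaffold subunit, went the other way, with 26.2, 26.5 and 24.7 CPM in shControl and 38.03, 38.2 and 35.5 CPM in shNXN cells. Its shNXN libraries were all higher and close to one another. The log2 fold change was 0.53 (SE 0.15, edgeR adjusted p = 0.0757, and 0.0408 with the block), which made it the only one of the 41 called higher with the block. FANCE, which links the core complex to FANCD2, was also higher in every shNXN library (11.9, 12.9 and 11.7 against 16.4, 17.96 and 19.01 CPM), and its log2 fold change of 0.55 had an adjusted p of 0.0955 from edgeR (0.0582 with the block). FANCA, FANCC and FANCF overlapped between the groups, with log2 fold changes of 0.29, 0.22 and -0.46. The subunits of this complex therefore did not share a direction.

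FANCD2 and FANCI, the pair that the core complex marks with ubiquitin, were both below 0 and neither passed the test in either fit. FANCI was at 105, 141 and 118 CPM in shControl and 47.9, 33.7 and 104 CPM in shNXN cells, so that the groups did not overlap but the values of day 11 nearly met. Its log2 fold change was -0.97 (edgeR adjusted p = 0.142, and 0.0728 with the block). FANCD2 was at 71.00, 91.6 and 76.7 CPM in shControl and 40.2, 33.1 and 79.01 CPM in shNXN cells, a log2 fold change of -0.65. Its shNXN library of day 11 exceeded the shControl library of that day. Without that library both genes passed the edgeR test, in a fit that called 25 of the 41 and 25.8% of all features.

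Among the 8 genes grouped as BRCA1, BRCA2 and their partners in homologous recombination, 7 were below 0 and 4 fell with the block, namely BRCA2, BRIP1, BARD1 and PALB2, although the sign of BARD1 turned to 0.39 when each library's GC trend was removed as well (edgeR adjusted p = 0.189). BRCA2, which acts on resected single-stranded DNA, was at 33.2, 15.9 and 29.4 CPM in shControl and 3.10, 2.94 and 9.22 CPM in shNXN cells, without overlap. For BRCA2 the log2 fold change was -2.36 (SE 0.52, edgeR adjusted p = 0.0538, and 0.0184 with the block). BRIP1, a helicase that binds BRCA1, was steady in shControl cells at 34.7, 33.2 and 36.7 CPM and was at 6.69, 6.93 and 20.3 CPM in shNXN cells. The shNXN library of day 11 was well above the other two of its group. The log2 fold change of BRIP1 was -1.62 (SE 0.44, edgeR adjusted p = 0.0725, and 0.0276 with the block).

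PALB2, the bridge between BRCA1 and BRCA2, was at 45.1, 47.8 and 47.05 CPM in shControl and 21.3, 18.4 and 37.4 CPM in shNXN cells. PALB2 thus had a log2 fold change of -0.86 (SE 0.28, edgeR adjusted p = 0.0935, and 0.0443 with the block). BARD1, the obligate partner of BRCA1, was at 32.6, 24.9 and 36.9 CPM in shControl and 16.7, 14.7 and 24.7 CPM in shNXN cells, so that the groups barely separated. The log2 fold change of BARD1 was -0.75 (SE 0.26, edgeR adjusted p = 0.107, and 0.0289 with the block). BRCA1 itself was lower in every shNXN library, at 27.1, 20.5 and 49.3 CPM against 51.5, 57.03 and 57.2 CPM. Its log2 fold change of -0.77 did not pass (edgeR adjusted p = 0.141, and 0.0619 with the block). RAD51C and XRCC2, which act in the same repair route, overlapped between the groups at log2 fold changes of -0.68 and -0.63, and XRCC2 went to 0.32 without the GC trend. XRCC3, whose transcript had the highest GC content of the 41, was higher in every shNXN library at 0.49 (edgeR adjusted p = 0.0963).

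Genes that sense and process broken ends were split in the same way. NBN and RAD50 belong to the MRN complex, which binds broken ends and activates ATM, and both fell with the block. RAD50 was at 77.1, 61.8 and 81.2 CPM in shControl and 25.7, 21.6 and 46.3 CPM in shNXN cells, a log2 fold change of -1.23 (SE 0.30, edgeR adjusted p = 0.0623, and 0.0187 with the block). NBN was at 85.8, 46.2 and 98.8 CPM in shControl and 14.2, 10.7 and 36.7 CPM in shNXN cells, a log2 fold change of -1.91 (SE 0.51, edgeR adjusted p = 0.0709, and 0.0153 with the block). Neither gene overlapped between the groups. RBBP8 encodes CtIP, which starts end resection, and was at 40.8, 28.3 and 57.97 CPM in shControl and 11.6, 8.76 and 33.8 CPM in shNXN cells. The shNXN library of day 11 lay above the shControl library of day 9, so the groups overlapped, and RBBP8 was called only with the block (log2 fold change -1.42, SE 0.25, edgeR adjusted p = 0.0237, against 0.155 without it). TP53BP1, which restrains resection, had a log2 fold change of -0.19, and the mediator MDC1 was higher in every shNXN library at 0.32 (edgeR adjusted p = 0.117 and 0.581 for MDC1 and TP53BP1).

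All 5 checkpoint genes were below 0, and ATM, ATR and TOPBP1 fell with the block. ATR, the kinase that responds to single-stranded DNA at stalled forks, was at 28.8, 38.1 and 34.2 CPM in shControl and 5.23, 4.29 and 18.2 CPM in shNXN cells. On days 7 and 9 it was far below the shControl libraries and on day 11 less so. The log2 fold change of ATR was -1.87 (SE 0.54, edgeR adjusted p = 0.0790, and 0.0338 with the block). ATM, the kinase that responds to double-strand breaks, had the same pattern, with 61.8, 58.02 and 78.02 CPM in shControl and 13.9, 7.97 and 36.7 CPM in shNXN cells. For ATM the log2 fold change was -1.76 (SE 0.52, edgeR adjusted p = 0.0806, and 0.0244 with the block). TOPBP1, which activates ATR, was at 105, 103 and 108 CPM in shControl and 44.8, 36.4 and 78.2 CPM in shNXN cells. For TOPBP1 the log2 fold change was -0.99 (SE 0.28, edgeR adjusted p = 0.0770, and 0.0319 with the block). The effector kinases CHEK1 and CHEK2 overlapped between the groups at log2 fold changes of -0.54 and -0.13, and CHEK1 went to 0.17 without the GC trend.

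BLM, RMI1 and RMI2 form, with a topoisomerase, the complex that dissolves double Holliday junctions, and its members differed. RMI1 was at 18.5, 12.3 and 20.9 CPM in shControl and 4.81, 3.68 and 5.86 CPM in shNXN cells, without overlap. Its mean went from 17.2 ± 4.41 to 4.78 ± 1.09 CPM (SD, n = 3), and its log2 fold change of -1.85 had the smallest adjusted p of the 41 (SE 0.30, adjusted p = 0.0452 from edgeR, and 0.0142 with the block). BLM, the helicase, was at 22.7, 18.4 and 26.4 CPM in shControl and 8.46, 7.05 and 18.8 CPM in shNXN cells, and the shNXN library of day 11 lay just above the shControl library of day 9. It was called only with the block (log2 fold change -1.09, SE 0.24, edgeR adjusted p = 0.0358, against 0.135 without it). RMI2 was at 25.3, 28.5 and 16.01 CPM in shControl and 23.6, 22.4 and 27.5 CPM in shNXN cells, a log2 fold change of 0.07 with overlapping groups.

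The 6 nuclease genes that unhook crosslinks and cut junctions had log2 fold changes between -0.54 and 0.42, and the smallest adjusted p among them was that of ERCC1. ERCC1, which forms a nuclease with ERCC4, was higher in every shNXN library, at 52.7, 52.9 and 58.7 CPM in shControl and 72.05, 77.8 and 70.1 CPM in shNXN cells. Its log2 fold change of 0.42 passed by DESeq2 (adjusted p = 0.0201) but not by edgeR (adjusted p = 0.0922, and 0.0581 with the block). DESeq2 also called FANCG, XRCC3, FANCE and MDC1 higher (adjusted p = 0.00360, 0.00866, 0.0101 and 0.0408). ERCC4 itself, its catalytic partner, was at 13.6, 15.9 and 20.2 and 9.55, 10.1 and 14.6 CPM with a log2 fold change of -0.54. The subunits of this nuclease had opposite signs on the counts as deposited, but after each library's GC trend was removed both were above 0, at 0.39 for ERCC4 and 0.09 for ERCC1. MUS81, the catalytic subunit of a junction nuclease, and SLX4, the scaffold on which these nucleases assemble, were higher in every shNXN library at 0.42 and 0.26, of which SLX4 went to -0.08 when the GC trend was removed. EME1, the partner of MUS81, and FAN1, a crosslink nuclease, overlapped between the groups at 0.30 and -0.35.

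REV3L, POLK, REV1 and HELQ, the polymerases and helicase that deal with unrepaired lesions, were all lower by counts in every shNXN library. REV3L, the catalytic subunit of polymerase zeta, was at 48.6, 54.5 and 38.6 CPM in shControl and 6.57, 4.11 and 16.4 CPM in shNXN cells, and its shNXN value of day 11 was the highest of its group. Its mean went from 47.2 ± 7.996 to 9.02 ± 6.49 CPM (SD, n = 3), and its log2 fold change was -2.39 (SE 0.49, edgeR adjusted p = 0.0497, and 0.0286 with the block). POLK, another translesion polymerase, had the lowest transcript GC content of the 41 and was at 11.9, 10.6 and 22.3 CPM in shControl and 2.74, 2.94 and 6.12 CPM in shNXN cells. The log2 fold change of POLK was -1.93 (SE 0.44, edgeR adjusted p = 0.0574, and 0.0142 with the block). REV1, the scaffold for these polymerases, was at -0.81 (edgeR adjusted p = 0.128, and 0.0776 with the block). HELQ, a helicase, was at -0.68 (edgeR adjusted p = 0.130, and 0.0637 with the block).

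Removal of each library's GC trend took away the edgeR calls made from all 6 libraries with TMM factors, with and without the block. The other scalings and filters, the fits with libraries left out and DESeq2 were not run with this removal. With the GC content entered as an offset, edgeR's quasi-likelihood test called 0 of the 41, with 11 at an unadjusted p under 0.05 (10 lower, 1 higher), against 0.0355% of all features called. With the block as well it was again 0, with 13 at an unadjusted p under 0.05 (12 lower, 1 higher), against 0.931% of all features. The median log2 fold change of the 41 moved from -0.68 to -0.24, against 0.01 over all features. Of the 41 genes 40 came closer to 0, and the number at least 1 below 0 went from 13 to 4. Those 4 were REV3L at -1.61 (SE 0.32, edgeR adjusted p = 0.0891), FANCB at -1.39, BRCA2 at -1.13 and ATR at -1.11. FANCB had the smallest adjusted p of the 41 with both the block and the offset (0.0729, edgeR).

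The offset takes out the shNXN minus shControl trend with GC content that the tested genes share. A response of the cells that tracks GC content and a technical trend therefore cannot be told apart. Across the 41 repair genes a relation to GC content remained after the offset, with Spearman's rho 0.55 (Pearson's r 0.51). The medians of the repair genes can be set beside those of all genes of like GC content. Under 40% GC the repair genes' median log2 fold change was -1.76 against -1.15 for all 2079 tested genes, and from 40% to 45% it was -0.86 against -0.55 for 2763 genes. From 45% to 50% the medians were -0.19 and -0.04, and at or over 55% they were 0.42 and 0.35. After the offset the medians of the repair genes under 40% GC and from 40% to 45% were -0.56 and -0.33, against -0.01 and 0.04 for all genes of the class. These medians are descriptions of 13 genes each and carry no test. In 7 genes the offset turned the sign. BARD1, ERCC4, XRCC2, HELQ and CHEK1 went from below 0 to 0.39, 0.39, 0.32, 0.18 and 0.17, and FANCA and SLX4 went from above 0 to -0.02 and -0.08.

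**Figure D3:**
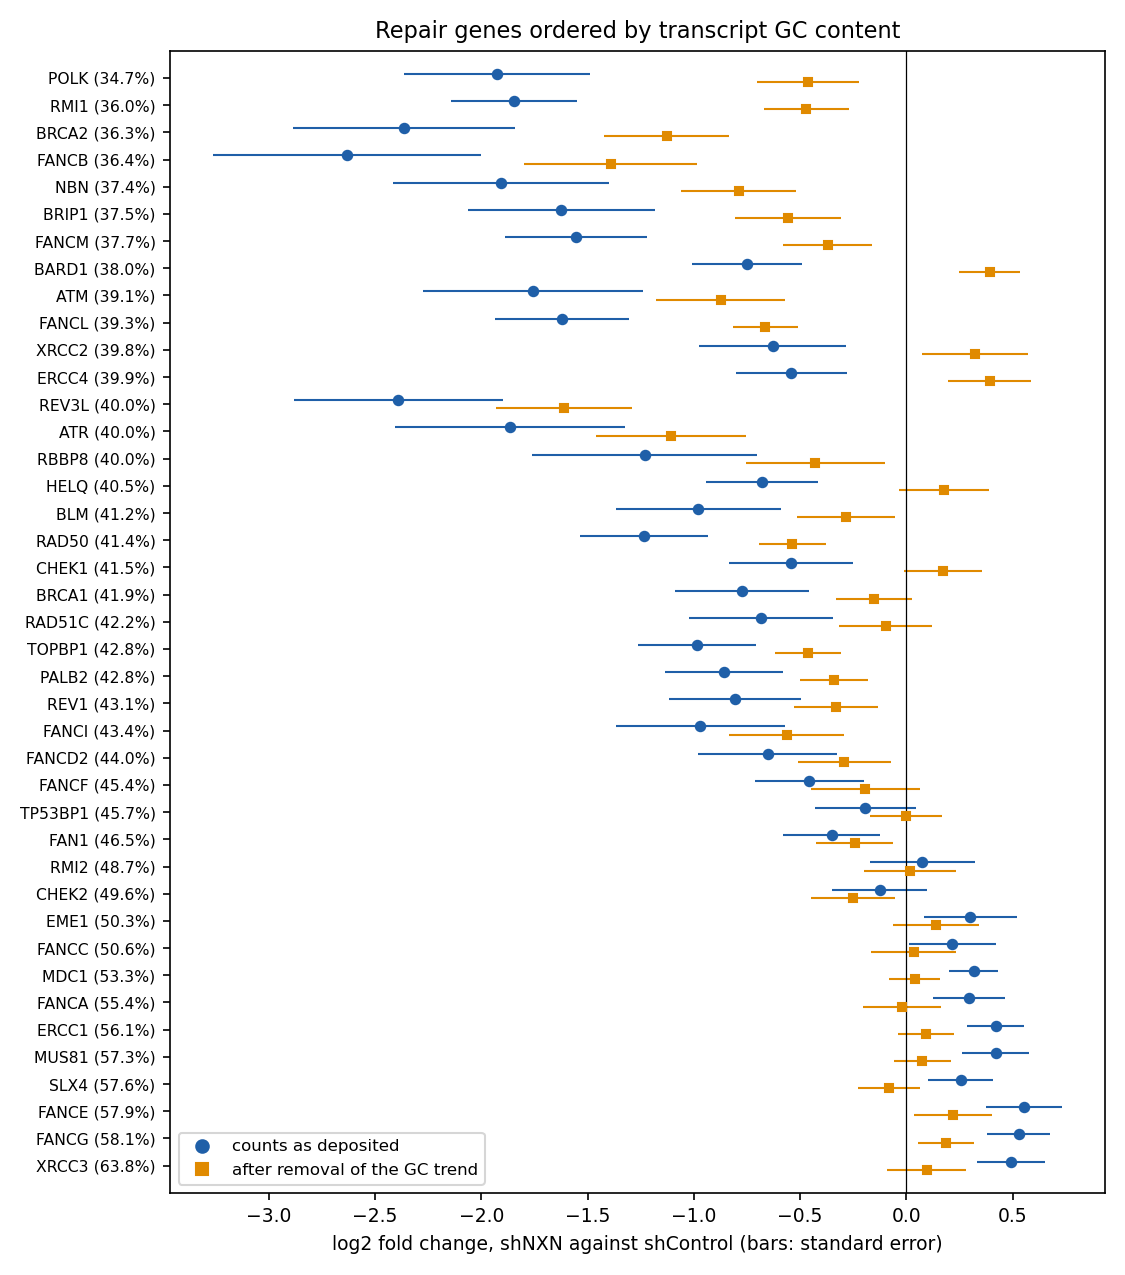
Log2 fold change of the 41 repair genes, shNXN against shControl, with bars of 1 standard error, before (blue circles) and after (orange squares) each library's GC trend was taken out. Genes run from the lowest transcript GC content at the top (POLK, 34.7%) to the highest at the bottom (XRCC3, 63.8%), and 40 of the 41 orange squares lie closer to 0.

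Within days, the difference between the groups was smallest on day 11. The median log2 difference of the 41 genes was -0.93, -1.17 and -0.33 on days 7, 9 and 11, while that of all tested features stayed within 0.07 of 0. Of the 41 genes 26 were lower on each of the 3 days, against 32.6% of all features, 9 were higher on each, against 35.8%, and 6 were mixed. Of the 30 genes with a log2 fold change below 0, 25 had their highest log2 difference on day 11. REV3L had log2 differences of -2.86, -3.69 and -1.23 on days 7, 9 and 11, and ATR of -2.43, -3.11 and -0.90. POLK and RMI1 were exceptions with nearly equal differences on the 3 days, -2.07, -1.81 and -1.84 for POLK and -1.92, -1.71 and -1.81 for RMI1. FANCG was likewise even, at 0.53, 0.52 and 0.52.

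A change of the shNXN effect with day was not detectable. The edgeR test of the interaction between group and day called 0 of the 41 genes, with 0 at an unadjusted p under 0.05 against 1.08% of all features, and it called 0% of all features. DESeq2 also called 0 of the 41, against 0.0284% of all features. With 1 library per group and day, this test has few degrees of freedom. After the GC offset the medians by day were -0.29, -0.35 and -0.00 on days 7, 9 and 11. The shNXN library of day 11 was also the one whose GC slope was nearest to those of the shControl libraries. The shControl library of that day had the lowest slope. Within days the slopes of shNXN and shControl were 0.39 and -0.28, 0.50 and -0.18, and 0.03 and -0.47 on days 7, 9 and 11. The part of the GC slopes in the smaller differences of day 11 was not tested beyond this offset.

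**Figure D4:**
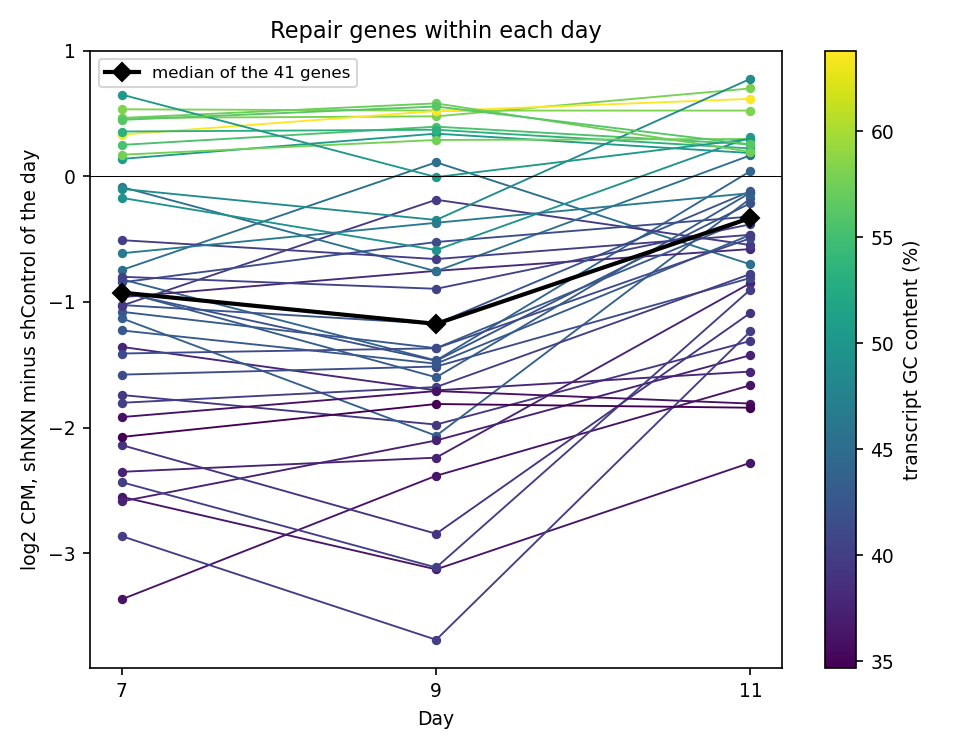
Log2 CPM difference between the shNXN and the shControl library of each day (vertical axis) on days 7, 9 and 11 (horizontal axis) for each of the 41 repair genes, coloured by transcript GC content, with their median in black. The median is -0.93, -1.17 and -0.33, and many of the GC-poor genes in dark colours lie nearer to 0 on day 11 while the GC-rich genes stay above 0.

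On the FPKM scale, which divides by transcript length and library size, most differences below 0 were smaller. Of the 30 genes below 0 on counts, 28 lay higher on log2(FPKM + 1), and TOPBP1 and TP53BP1 lay lower, at -1.14 against -0.99 and at -0.23 against -0.19. The added 1 shrinks log2 differences, and the median over all features was 0.13 on this scale against 0.03 on counts. In shControl cells the mean FPKM of the 41 genes ran from 2.47 for FANCB to 54.1 for FANCI, with a median of 13.1. The FANCD2-FANCI pair was the most abundant role by its median FPKM and translesion synthesis with HELQ the least. By limma on log2(FPKM + 1), where the median over all features was 0.13, the median of the 41 was -0.36. BRCA2 and RMI1 were called, against 1.68% of all features, and with 0.1 added in place of 1 RMI1 alone, against 0.142%. BRCA2 was at 6.70, 5.32 and 4.39 FPKM in shControl and 0.300, 0.540 and 1.23 FPKM in shNXN cells, a difference of -1.96 on the log2(FPKM + 1) scale (limma adjusted p = 0.0370). For RMI1 the values were 9.26, 7.57 and 8.74 and 2.74, 1.98 and 2.78 FPKM, a difference of -1.45 on that scale (limma adjusted p = 0.0370). These differences understate the change of low genes because of the added 1.

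HELQ was the only one of the 41 with opposite signs on the count and FPKM scales. It was at 7.08, 7.63 and 8.10 CPM in shControl and 4.02, 4.05 and 6.19 CPM in shNXN cells, lower in every shNXN library, but at 4.66, 4.55 and 6.57 and 7.77, 8.33 and 6.88 FPKM, higher in every shNXN library. The log2 difference was -0.68 on counts and 0.48 on log2(FPKM + 1) (limma adjusted p = 0.141), beside a median over all features of 0.13 on the latter scale. A transcript length can be backed out of the pair of values as the count over the product of FPKM and library total. For HELQ this implied length was 1509.9, 1672 and 1230.1 bases in shControl and 531, 493 and 868 bases in shNXN libraries. NBN showed the same on days 7 and 9, with 3296, 2416 and 3919.5 bases in shControl and 892, 654 and 3787 bases in shNXN libraries. The shNXN library of day 11 was within the shControl range for NBN.

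The implied length was lower in every shNXN library for 11 of the 41 genes and higher in every one for 0. Among the 39 genes with a mean of at least 100 counts it was lower for 10, against 18.6% of 10802 such features (3.76% higher). The 11 were FANCG, FANCL, BRCA1, BARD1, RAD51C, XRCC3, ATM, ATR, CHEK1, REV1 and HELQ, of which HELQ was under that mean. For ATM it was 6949.7, 3813 and 4546 bases in shControl and 2045, 2169 and 3462 bases in shNXN libraries. For BRCA1 it was 3816, 2894 and 3747 and 1894, 1875 and 2532 bases. For such genes the count and the FPKM answer different questions, and how the authors' program set the lengths is not given in the sources used here.

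**Figure D5:**
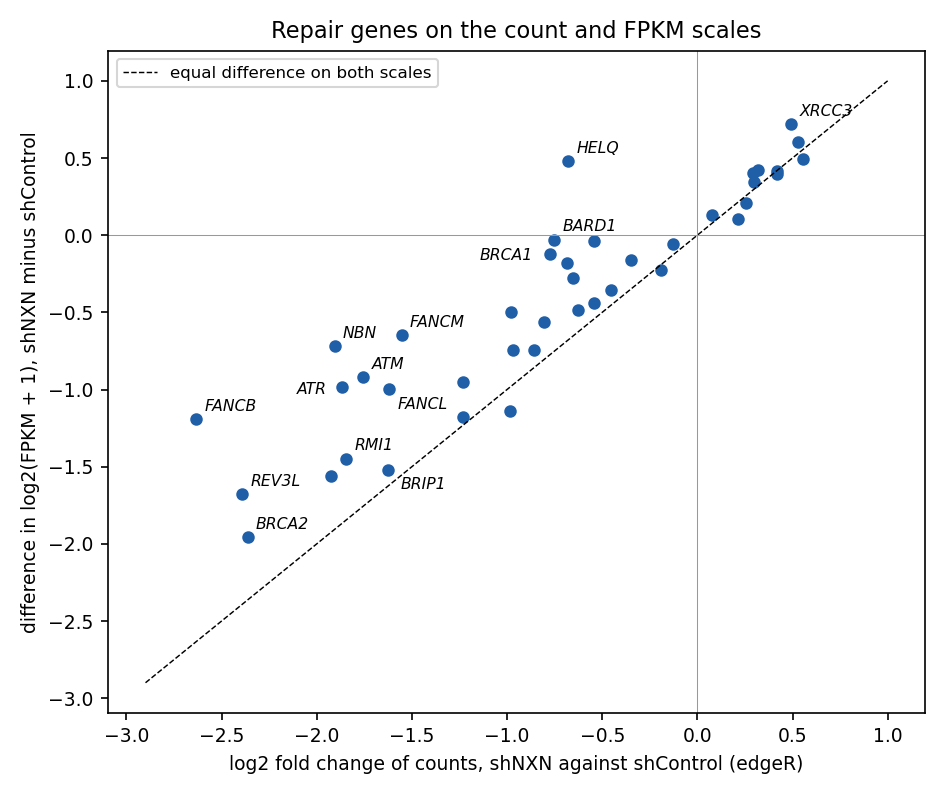
Log2 fold change on counts (horizontal axis) and difference in log2(FPKM + 1) (vertical axis) of the 41 repair genes, shNXN against shControl, with a dashed line of equality. Genes below 0 mostly lie above the line, NBN, FANCB and ATR far above it, and HELQ alone has opposite signs, at -0.68 and 0.48.

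Other genes of the same pathways gave a weaker lean on the counts as deposited. Of 50 further Fanconi and homologous recombination genes, 49 were tested, 30 were below 0 and the median log2 fold change was -0.16. After the GC offset 23 were below 0 and 26 above, and the median was 0.02. Without the block 4 (8.16%) were called by edgeR, all lower, namely ETAA1, GEN1, SHLD3 and USP1, against 3.39% of all features (3.21% lower). With the block there were 11 (22.4%), all lower, near the 23.3% of all features called in either direction (17.0% lower). GEN1, a nuclease that cuts Holliday junctions, was at 37.1, 21.8 and 37.5 CPM in shControl and 5.78, 3.92 and 7.02 CPM in shNXN cells (log2 fold change -2.53, edgeR adjusted p = 0.0393). It was the only one of these genes still called with the block and the GC offset (-1.58, edgeR adjusted p = 0.0381). Without the block the offset left it at an adjusted p of 0.0757 from edgeR. On log2(FPKM + 1) the difference of GEN1 was -0.89 (limma adjusted p = 0.175). Its mean implied length was 3844 bases in shControl and 1560 bases in shNXN libraries. USP1, which removes ubiquitin from FANCD2, was at 131, 63.1 and 112 CPM in shControl and 41.6, 33.3 and 41.6 CPM in shNXN cells (log2 fold change -1.39, edgeR adjusted p = 0.0492). ETAA1, another activator of ATR, was at -1.78 (edgeR adjusted p = 0.0393) and went to -0.13 after the offset. SHLD3, a shieldin subunit, was at -2.11 (edgeR adjusted p = 0.0452).

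In neighbouring pathways edgeR's quasi-likelihood test called 0 genes without the block. DESeq2 called 2 of 10 end joining genes, 3 of 7 mismatch repair genes and 6 of 19 replication markers, against 23.5% of all features. The counts that follow stand against 32.9% of all features at an unadjusted p under 0.05 and 23.3% called with the block, and the difference of a list from all features was not tested. Of 10 end joining genes 3 were below an unadjusted p of 0.05, and with the block LIG4, XRCC4 and DCLRE1C fell. Of 7 mismatch repair genes 6 were below 0, with a median log2 fold change of -0.90, beside -0.68 for the 41. By edgeR 4 of the 7 were below an unadjusted p of 0.05, all lower. With the block 3 fell, PMS1 and MLH3 among them. After the GC offset the median of the 7 was -0.22, beside -0.24 for the 41. The end joining genes and the replication markers had medians of -0.15 and 0.22 without the offset. Repair genes are most active in S phase, so markers of replication were compared. Of 19 such markers 7 were below an unadjusted p of 0.05, and with the block CCNE2 fell and MCM7, CDT1, MCM5 and E2F1 rose. With the block and the GC offset together edgeR called 0 genes of these 3 lists, with 2, 3 and 2 at an unadjusted p under 0.05. The replication markers' summed level was 3424, 3194 and 3543 CPM in shControl and 3669.6, 3574 and 3992 CPM in shNXN cells on days 7, 9 and 11, higher in every shNXN library. The part of these markers in the levels of the 41 repair genes was not tested.

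RefSeq promoters (GRCh38.p14, 250 bases before to 50 after each start) were given for 38 of the 41 genes. The median GC content of these genes' 51 promoters was 64.3%. It was 66.3% for the genes that fell with the block and 62.7% for the others, against 58.7% over all 35116 promoters. Letters of the E2F site (TTTCCCGC, TTTGGCGC, TTTCGCGC or TTTGCCGC, on either strand) stood in the promoters of 7 of 38 genes (18.4%), against 6.49% of 10326 tested genes. These were FANCA, FANCC, FANCD2, REV3L, RMI1, TOPBP1 and XRCC2, of which REV3L, RMI1 and TOPBP1 are among the 16 with a promoter that fell with the block. The letters thus stood in 3 of the 16 genes that fell and in 4 of the 22 others. The CHR letters TTTGAA stood in 15.8% against 13.7%, the NFY letters CCAAT in 44.7% against 43.3%, and the NRF1 letters GCGCATGC in 10.5% against 6.32%. A match of letters is a description and not a bound site.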

How the data were processed

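RNA sequencing of 3 shControl and 3 shNXN libraries of Hep-3B cells was analysed, with groups and days taken from the sample labels. The authors deposited an estimated count per feature and library, with decimals, and a further table of FPKM values (fragments per transcript length and sequencing depth). Aligner, counting program, annotation and strand setting are not given in the sources used here. The submitters' processing notes name the mouse builds GRCm38 and mm10, although the identifiers are human Ensembl identifiers, so coordinates, transcript lengths and GC content were taken from GENCODE 29 (GRCh38) by identifier. There were 0 columns without a sample. Reads of paralogs, pseudogene copies (FANCD2, RBBP8 and CHEK2 have some) and overlapping genes (exons of 14 of the 41 genes overlap another protein-coding gene) may have been shared out.

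Counts were rounded to whole numbers and tested over all features with edgeR 4.0.16 (R 4.3.3), using TMM factors, filterByExpr and the quasi-likelihood test. Benjamini-Hochberg adjusted p values under 0.05 over all tested features counted as calls. The standard error is the log2 fold change divided by the square root of F. The GC offset was a natural spline (5 degrees of freedom) fitted to each library's log2 deviations on the GC content of the longest transcript, known for 90.5% of tested features and all 41 genes, and that transcript need not be the one expressed. Differences within a day used log2 CPM with a prior count of 2 and have no replicate. FPKM values were tested with limma 3.58.1 on log2(FPKM + 1). Replicate numbers follow the day in the labels, and libraries of a day deviated from their group means together (correlations 0.30, 0.31 and 0.45, against -0.37 to 0.15 between days), so the block is given beside results. No replicates of a group agreed within sampling noise. Alternatives were RLE factors, library size only, DESeq2 1.42.0, other filters, a GC and length offset, log2(FPKM + 0.1) and libraries left out. Scripts were tested on simulated data. Figures and sequence windows used Python 3.11.15, pandas 2.3.3 and matplotlib 3.10.9.

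The 41 genes, the other lists, the GC offset and the tests were chosen with earlier results of these data known. Full values are given for genes called without the block, with it or with block and offset. Also named, with the log2 fold change, are the 3 of lowest and 3 of highest GC content, genes whose groups do not overlap, genes whose sign differs on the FPKM scale, and from other lists genes called (with the block, at most 6 per list by smallest p). Some genes that the rule covers are not reported here. Experiments other than this profiling were not analysed here.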

Additional observations from a re-analysis of the deposited data

How the results depend on the processing

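The number of the 41 repair genes called was 3. It was 6 with RLE factors, 8 with library size only, 8 with no filter beyond 1 count, 20 with DESeq2, 18 with the replicate block, 1 with limma on log2(FPKM + 0.1), and 0 under each of the GC correction alone, joined with the replicate block, or joined with length. Leaving out 1 library, or both of a day, gave 0 to 26, with 25 without shNXN replicate 3 (day 11) and 26 without both libraries of day 11. At least 10 counts in every library gave 4 calls and limma on log2(FPKM + 1) gave 2. For the other Fanconi and homologous recombination genes, 4 were called (3.39% of all features). The number was 7 with library size only (6.6% of all features), 7 with no filter (4.22%), 14 with DESeq2 (23.5%) and 11 with the replicate block (23.3%). It was 1 with the block and GC correction (0.931%) and 1 with limma on log2(FPKM + 0.1) (0.142%). GC correction alone or joined with length gave 0 (0.0355%), and libraries left out gave 0 to 21 (0% to 31.8%). Of the tested genes of this list, DESeq2 called 28.6% and the block 22.4%. The cause of these differences was not tested. The median log2 fold change of the 41 was -0.68, or -0.77 with the replicate block. It was -0.24 with GC correction, -0.25 with the block added to that, -0.24 with length added instead, and -1.12 to -0.55 with libraries left out, so that its direction held in all alternatives run. The median differences of -0.93 on day 7 and -1.17 on day 9 became -0.29 and -0.35 with GC correction, -0.24 and -0.44 on log2(FPKM + 1), and -0.27 and -0.47 on log2(FPKM + 0.1). The medians over all features on days 7 and 9 were 0.17 and 0.12 on log2(FPKM + 1), and 0.20 and 0.15 on log2(FPKM + 0.1).

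The sign turned with GC correction alone, joined with the replicate block and joined with length, in that order, for BARD1 (0.39, 0.39 and 0.39), ERCC4 (0.39, 0.40 and 0.39), XRCC2 (0.32, 0.36 and 0.33), CHEK1 (0.17, 0.19 and 0.18), HELQ (0.18, 0.18 and 0.18), FANCA (-0.021, -0.017 and -0.011) and SLX4 (-0.081, -0.085 and -0.074). It also turned for TP53BP1 with GC and length together (0.0089) and for HELQ on log2(FPKM + 1) (0.48) and log2(FPKM + 0.1) (0.55). With libraries left out, RMI2 ran from -0.23 to 0.33, CHEK2 from -0.37 to 0.094 and TP53BP1 from -0.45 to 0.066. With 1 library per group and day no result within a day has a replicate. FANCB, with 6 counts in its lowest library, is the gene most limited by depth.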
